A study of Drosophila melanogaster with 2 samples.

Results

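The Brahma complex is the Drosophila member of the SWI/SNF family, multi-subunit machines that use ATP to slide or evict nucleosomes. It was found through trithorax group genes, which keep homeotic genes active, and it acts widely at active genes in the embryo. Most subunits are common to a pair of forms, BAP and PBAP, which differ by signature subunits. The 8 genes described here were chosen by name. The ATPase is encoded by brm, core scaffold subunits by mor and Snr1, and accessory subunits by Bap60, Bap55 and Bap111. A signature subunit of BAP is encoded by osa and a signature subunit of PBAP by polybromo. These genes are 8 of 13968 protein-coding genes annotated on the chromosome arms in Ensembl release 115.

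The data are chromatin immunoprecipitation and sequencing (ChIP-seq) peak lists for CG14667, a zinc-finger protein. Whole Drosophila melanogaster embryos of 0 to 24 h, from 1 transgenic strain that carries a CG14667-eGFP fusion, were precipitated with an anti-GFP antibody in 2 biological replicates that form a single group. Embryos of that span mix all tissues and stages, so no peak can be given to a cell type, and no embryos without the fusion or under another condition were analysed here. The conservative list held 3083 peaks that met a limit of 0.01 on the global irreproducible discovery rate (IDR), the expected share of irreproducible peaks among those ranked at least as high. Each replicate also had its own list, of 2699 peaks in replicate 1 and 2146 in replicate 2, and longer ranked lists held all candidates. Each peak has a summit and a signal. The signal is the authors' own value on a scale that the sources used here do not give, so it serves to rank peaks within a list. Sequencing depth is unknown, and no interval can be put on a signal.

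CG14667-eGFP peaks lay at or inside 3 of the 8 genes, brm, osa and Bap60, and 5 conservative peaks lay there. The share of all protein-coding genes with either kind of peak was not counted, so this count has no background beside it. A summit lay within 500 bp of a transcription start of brm and of Bap60, which is 2 of 8, where 12.6% of all protein-coding genes had one. A summit lay inside brm and inside osa, again 2 of 8, where 8.61% of protein-coding genes had one. These are the longest of the members, and of protein-coding genes at least as long as brm 38.3% had a summit inside. With so few members these shares are a description, and no test was made of them. The other 5 genes, mor, Snr1, polybromo, Bap55 and Bap111, had neither kind of peak in the conservative list. All 5 peaks were in both replicates' own lists, as were 56.2% of the 3029 conservative peaks on the arms. The 5 were also in the series' other thresholded list with the same signals. The 500 bp limit was not close to any of these genes: start summits lay 132 and 150 bp away, and the nearest summit beyond the limit lay 3147 bp from a start, at Bap55.

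**Figure D1:**
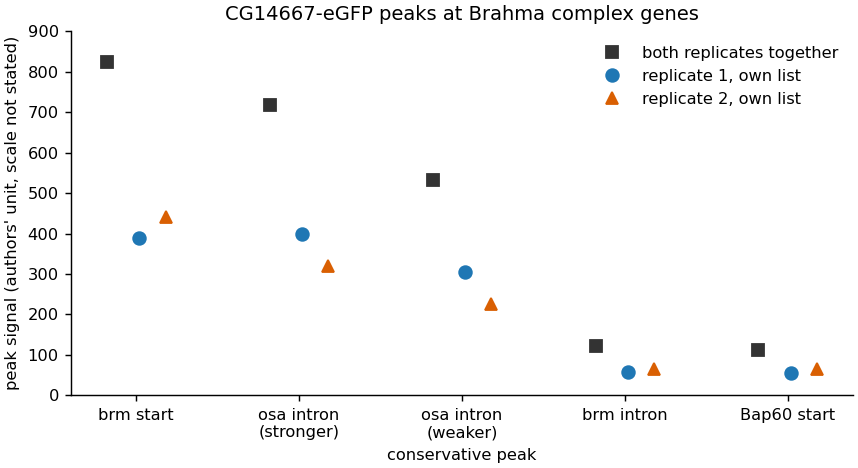
Signal of the 5 conservative peaks at Brahma complex genes, in the authors' unit, for both replicates together (squares) and in each replicate's own list (circles and triangles). The brm start and both osa intron peaks reach at least 226.7 in each replicate, while the brm intron and Bap60 start peaks lie between 55.8 and 65.3.

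The strongest of the 5 peaks lay just upstream of brm, the ATPase gene (FBgn0000212, 3L at 15970082 to 15982869, minus strand, dm6). The peak spanned 15982865 to 15983146, and its summit at 15983001 was intergenic, 132 bp upstream of the outer start of brm. Its signal was 824.6 with both replicates together, rank 39 of 3083. Replicate 1 gave 388.8 (rank 56 of 2699) and replicate 2 gave 439.7 (rank 32 of 2146), with a mean of 414.3 ± 36.0 (SD, n = 2). The replicates' summits were 18 bp apart. It ranked 29 among the 1304 conservative summits near protein-coding starts, by the same 500 bp limit, in the top 2.22%. The peaks ranked just above it were nearest to CG3552 (837.0) and msi (830.9), which encodes the RNA-binding protein Musashi. Those ranked just below were nearest to gish (817.7), which encodes a casein kinase, and CG16753 (813.9, at a distance of 5712 bp).

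This peak was not brm's alone. Arl1 (FBgn0000115, 3L at 15983135 to 15984362, plus strand), which encodes a small GTPase of the Golgi, starts 266 bp from brm and runs the other way. The summit lay 134 bp from the Arl1 start and 132 bp from that of brm, so the 2 genes were nearly equally near and the peak cannot be assigned to 1 of them. The second annotated brm start, used by 1 of its 6 transcripts, lay 152 bp from the summit. Of the 1755 protein-coding genes with a start summit in the conservative list, 63.4% shared their strongest such summit with another gene's start in the same way.

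The stretch between the brm and Arl1 starts is shown because the peak covers it entirely. It is chr3L:15982870-15983134 in dm6, plus strand, with brm to the left and Arl1 to the right. Capitals mark TAATTA, a core word of homeodomain sites, and TATAAA, the TATA box word, on either strand. The first TAATTA overlaps the TATAAA match.
brm to Arl1: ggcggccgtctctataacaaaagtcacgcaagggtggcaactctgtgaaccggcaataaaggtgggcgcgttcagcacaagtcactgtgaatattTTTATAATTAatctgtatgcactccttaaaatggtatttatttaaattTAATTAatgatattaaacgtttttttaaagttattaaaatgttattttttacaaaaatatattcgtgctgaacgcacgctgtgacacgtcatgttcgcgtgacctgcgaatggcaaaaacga
The middle of this stretch was far poorer in G and C than the sequence beyond it. Within 50 bp of the summit the GC content was 16.8%, against 53.5% in the windows centred 300 bp to either side. Those windows lie outside the stretch, within brm and Arl1. The longest run of A and T alone within 50 bp of the summit was 22 bases. The median over all 3029 conservative summits on the arms was 10 and the 95th percentile 21. At the other member summits this run was shorter: 19 bases in the brm intron, 11 and 15 at the stronger and weaker osa peaks, and 8 at Bap60. TAATTA was found there at 2 positions and at 10.1% of all summits. TATAAA occurred at 24.1% of all summits.

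Within brm a second, weaker peak lay at 15977606 to 15977941 on 3L. Its summit, 15977774, was 5095 bp into the gene from the outer start and 5075 bp from the inner one, and lay in a 6873 bp stretch with no brm exon, 2525 bp from the nearest one. The signal was 122.9, rank 1428 of 3083 and close to the list's median of 114.9. It was 57.6 in replicate 1 (rank 1879) and 65.3 in replicate 2 (rank 1190), a mean of 61.4 ± 5.41 (SD, n = 2), and the replicates' summits were 6 bp apart. The nearest start was 741 bp away and belonged to CG17029 (FBgn0036551, 15976870 to 15978435, plus strand), a protein-coding gene nested in this brm intron. The summit also lay in an intron of CG17029, so it cannot be assigned to brm rather than to the nested gene. Of the 1585 protein-coding genes at least as long as brm (12788 bp), 38.3% had a summit inside in the conservative list.

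The 300 bases around this summit, chr3L:15977625-15977924 on the plus strand of dm6, are shown because they hold CGATA, the word bound by the insulator protein BEAF-32, at 3 positions. Capitals mark CGATA and TATAAA on either strand.
brm intron: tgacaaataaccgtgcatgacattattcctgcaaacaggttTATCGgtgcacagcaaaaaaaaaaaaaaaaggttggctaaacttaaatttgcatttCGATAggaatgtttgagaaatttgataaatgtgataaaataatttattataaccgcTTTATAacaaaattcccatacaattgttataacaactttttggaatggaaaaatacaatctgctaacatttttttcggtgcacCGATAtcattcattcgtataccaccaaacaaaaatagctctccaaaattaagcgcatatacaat
These matches ended 104, 48 and 87 bp from the summit, and the middle one reached beyond the 50 bp window, so none counted within it. At least 3 matches within 150 bp were found at 5.38% of all summits. This wider count was made after the sequence was seen, with its limit set by the matches found here. TATAAA lay 4 bp from the summit. The GC content there was 22.8%, against 57.9% in the flanking windows.

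**Figure D2:**
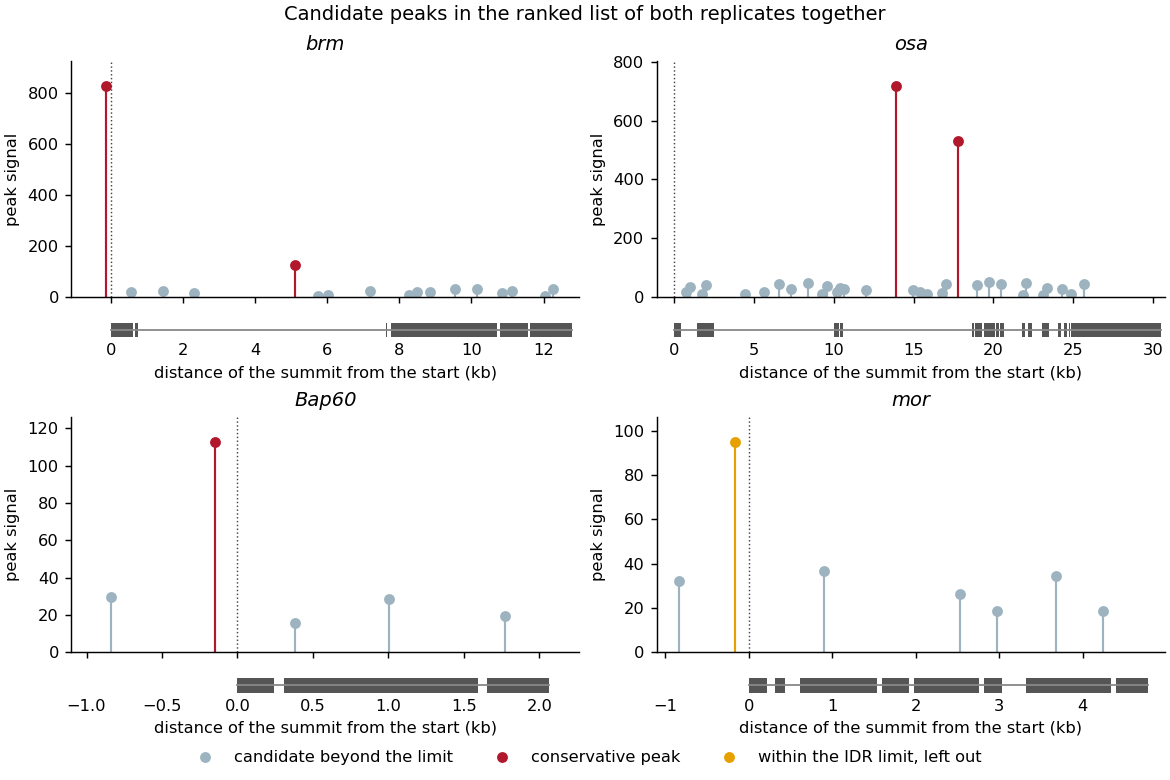
Candidate peaks of the ranked list for both replicates together at brm, osa, Bap60 and mor, drawn as signal (vertical axis, authors' unit, different in each panel) against the distance of the summit from the gene's outermost start in kb. Grey boxes under each panel are exons; the conservative peaks of brm reach 824.6 and 122.9 and those of osa 716.7 and 531.8, and in the range drawn for mor the candidate of 94.9 upstream of its start was within the IDR limit but left out of the list.

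The gene for the BAP signature subunit, osa (FBgn0261885, 3R at 17687818 to 17718350, minus strand), had no summit at its start and 2 strong ones deep inside. The stronger spanned 17704288 to 17704545 and lay 13923 bp from the start, with a signal of 716.7 and rank 56 of 3083. Replicate 1 gave 398.9 (rank 51) and replicate 2 gave 318.6 (rank 65), a mean of 358.7 ± 56.8 (SD, n = 2). The weaker spanned 17700456 to 17700707, 17764 bp from the start, with a signal of 531.8 and rank 110. It was 305.2 in replicate 1 (rank 103) and 226.7 in replicate 2 (rank 131), a mean of 265.9 ± 55.5 (SD, n = 2). Both osa peaks were thus higher in replicate 1, while the brm and Bap60 peaks were higher in replicate 2. The log2 ratios of replicate 1 to replicate 2 were 0.32 and 0.43 at the osa peaks, -0.18 at both brm peaks and -0.22 at Bap60. Over 1701 conservative peaks found in both own lists the median was 0.23 with an SD of 0.39, so the osa ratios were the closer to it and the brm and Bap60 ratios lay about 1 SD below.

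Both osa summits lay in the same 8067 bp stretch without osa exons, 3841 bp apart, and both lay beside genes for long non-coding RNAs that run the other way within that intron. The stronger summit, 17704427, was in an exon of lncRNA:CR46035 (FBgn0267702, 17703695 to 17705581, plus strand), 732 bp from its start. The weaker summit, 17700586, was 155 bp upstream of the start of lncRNA:CR46036 (FBgn0267703, 17700741 to 17701873, plus strand). The weaker peak was therefore a start peak of that RNA gene by the same 500 bp limit. Among the 1725 conservative summits on the arms with no protein-coding start within 500 bp, these ranked 14 and 37. Of the 660 protein-coding genes at least as long as osa (30533 bp), 23.9% held 2 or more conservative summits. Per length, osa held 0.0655 summits per kb and brm 0.0782, the other members held none inside, and the arms as a whole held 0.022. A single summit already puts a gene of brm's length above the arms' value, so these densities do not measure enrichment.

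The sequences of both osa peaks are shown to compare them with the brm promoter stretch. They are chr3R:17704288-17704545 and chr3R:17700456-17700707 in dm6, plus strand, and capitals mark TATAAA on either strand.
osa intron, stronger peak: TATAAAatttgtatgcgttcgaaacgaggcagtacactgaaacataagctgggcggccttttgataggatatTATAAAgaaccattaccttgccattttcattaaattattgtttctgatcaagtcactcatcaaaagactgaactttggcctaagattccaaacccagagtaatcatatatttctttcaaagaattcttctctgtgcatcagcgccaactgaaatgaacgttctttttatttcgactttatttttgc
osa intron, weaker peak: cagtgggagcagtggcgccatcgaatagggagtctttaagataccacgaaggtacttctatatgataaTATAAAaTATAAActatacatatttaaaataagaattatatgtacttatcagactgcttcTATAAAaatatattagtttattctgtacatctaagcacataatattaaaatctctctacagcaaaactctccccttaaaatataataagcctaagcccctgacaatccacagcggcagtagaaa
Within 50 bp of the summit the stronger peak had no TATAAA and 1 match to GCCAT, the core word of Pho sites, which 13.7% of all summits had. The weaker peak had TATAAA over the summit itself, from 2 bp before it to 3 bp after. GC content at the stronger summit was 31.7% against 54.0% in its flanks, and at the weaker one 19.8% against 49.0%.

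Bap60 (FBgn0025463, X at 13157445 to 13159508, minus strand), an accessory subunit gene, had the weakest of the 5 peaks. It spanned 13159490 to 13159825 on X, with a signal of 112.7 and rank 1589 of 3083. Replicate 1 gave 55.8 (rank 1965) and replicate 2 gave 65.2 (rank 1195), a mean of 60.5 ± 6.63 (SD, n = 2). The summit, 13159658, lay 150 bp upstream of the Bap60 start and 54 bp inside CG12096 (FBgn0030457, plus strand), whose outer start is 96 bp from that of Bap60 and whose other start lay 156 bp from the summit. It was in the 5' UTR of CG12096, the nearer gene, and with each summit given only to the nearest start Bap60 had none.

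The 95 bases between the Bap60 and CG12096 starts, chrX:13159509-13159603 in dm6, plus strand, lie inside the peak but do not reach its summit. They hold 1 match to CGATA, marked in capitals, which ended 108 bp from the summit.
Bap60 to CG12096: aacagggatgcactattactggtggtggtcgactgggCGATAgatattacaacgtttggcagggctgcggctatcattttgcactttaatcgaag
The transcribed side of CG12096 held 5 more CGATA matches within 150 bp of the summit, the nearest 34 bp away. A pair of them overlap as TATCGATA, the DRE of core promoters, 130 bp from the summit. CGATA was within 50 bp of 14.3% of all summits, at least 6 matches were within 150 bp of 0.132%, and TATCGATA within 150 bp of 4.03%. These wider counts were made after the sequences were seen. At the Bap60 summit the GC content was 25.7%, against 57.4% in the flanks.

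All 5 summits were poor in G and C beside their surroundings. The mean GC content within 50 bp of them was 23.4%, against 54.4% in flanking windows, a difference of -31.0 percentage points (SD 5.67, n = 5 summits). The differences ran from -36.6 at the brm start to -22.3 at the stronger osa peak. Over all 3029 summits on the arms the difference was -11.2 points (SD 13.0), and 18.9% of them were at or below -22.3. The osa summits share an intron and the brm summits a gene, so the 5 are not independent.

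**Figure D3:**
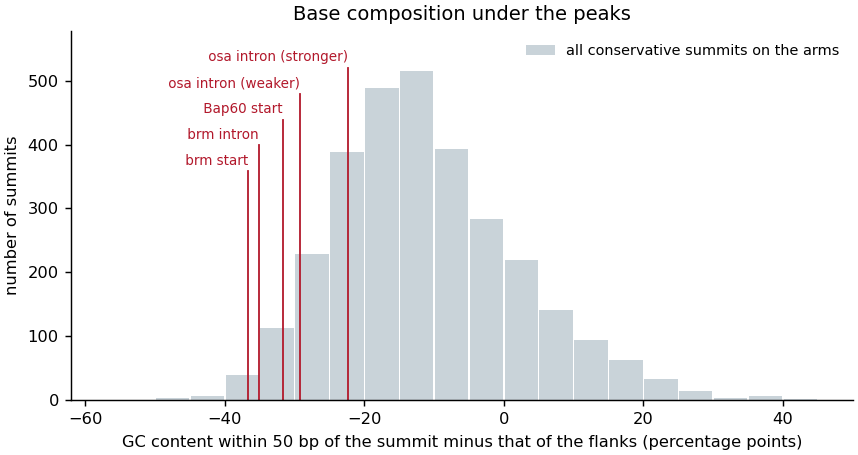
Number of conservative summits by the difference between the GC content within 50 bp of the summit and that of the flanking windows, in percentage points (bars, 3029 summits), with the 5 summits at Brahma complex genes as vertical lines. The lines stand at -36.6 to -22.3, left of the mean of all summits at -11.2.

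Other words searched on both strands within 50 bp of the summits were the DRE (which contains the BEAF-32 word), GAGAG (the word bound by Trithorax-like), motif 1 of core promoters (GGTCACAC) and an E-box (CAGCTG). None was found wholly within that window at any of the 5 summits, and over all summits they occurred at 1.02%, 7.56%, 0.462% and 2.54%. At the weaker osa peak a GAGAG match lay 49 to 53 bp from the summit, across the window's edge. Other GAGAG matches lay within 150 bp of the brm intron summit and of both osa summits. The share of all summits with GAGAG at that width was not counted. TATAAA was at 3 of the 5, the brm start, the brm intron and the weaker osa peak, and at 24.1% of all summits. These shares were not matched for base composition. The GC content was 16.8%, 22.8% and 19.8% at those 3 summits, the lowest of the members, and 33.2% on average over all summits.

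**Figure D4:**
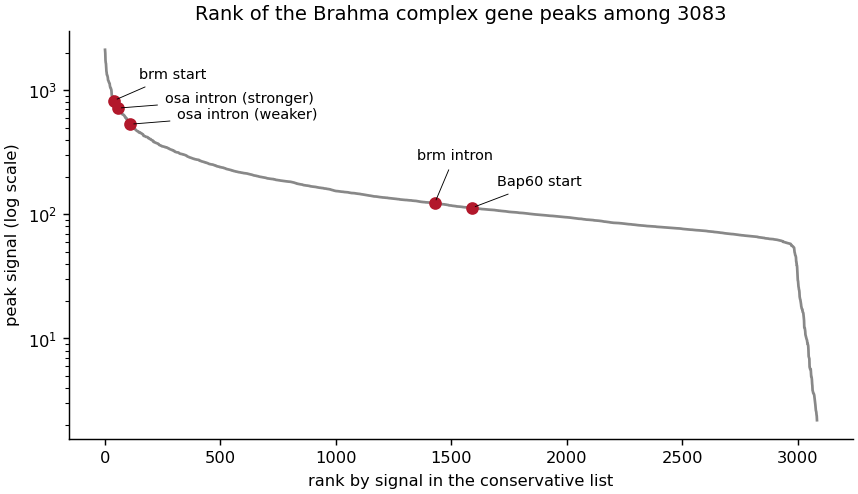
Signal on a log scale against rank for all 3083 conservative peaks, with the peaks at Brahma complex genes marked. The brm start (rank 39) and both osa peaks (ranks 56 and 110) stand near the top, and the brm intron (1428) and Bap60 start (1589) peaks near the middle.

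The scaffold subunit gene mor (FBgn0002783, 3R at 15968134 to 15972913, minus strand) had no peak in any thresholded list, but a ranked candidate upstream of its start met the authors' limit. It spanned 15972912 to 15973247 on 3R, and its summit was intergenic, 167 bp from the mor start and 218 bp from that of Hel89B (FBgn0022787), a neighbour on the other strand that encodes a SNF2-family ATPase. With both replicates together its signal was 94.9, rank 2109 of 129916 candidates, and its global IDR was 0.00343. In replicate 1 it had a signal of 57.0 with an IDR of 0.00195. In replicate 2 the signal was 32.4 and the IDR 0.135, beyond the limit. A further candidate, at 15974260 to 15974595 in an intron of Hel89B, had a signal of 100.1 and an IDR of 0.00114, and it too was in no thresholded list. Of the 3226 ranked candidates within the limit, 143 (4.43%) were missing from the conservative list, 88 of them on the arms. The authors' listings name a further input for the thresholded lists, and why these candidates were left out was not tested. Apart from them, the conservative summit nearest to mor lay 80276 bp away.

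Snr1 (FBgn0011715, 3R at 5470926 to 5472754, plus strand), the other scaffold gene, had only weak candidates. The one at its start had a signal of 27.1 with both replicates together (rank 39872 of 129916), 16.5 in replicate 1 and 13.1 in replicate 2, with global IDR values of 0.561, 0.777 and 0.931. Its strongest, inside the gene, reached 38.9. The nearest conservative summit lay 14515 bp downstream, 102 bp from CG31550. For scale, the median candidate signal of that ranked list was 19.9.

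The PBAP signature gene polybromo (FBgn0039227, 3R at 24799967 to 24805259, minus strand) had no candidate at its start in any ranked list and 1 inside, near its far end. That candidate had a signal of 29.3 with both replicates together (IDR 0.766), 10.5 in replicate 1 and 25.3 in replicate 2. The nearest conservative summit was 11950 bp upstream, next to CG5808. The 2 signature genes among the members thus differed in these lists, with 2 peaks inside osa and none at polybromo. However, osa is 30533 bp long and polybromo 5293 bp.

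The accessory subunit genes Bap111 and Bap55 had weak candidates too. Bap111 (FBgn0030093, X at 9149309 to 9151976, plus strand), which encodes an HMG-box protein, had a start candidate of 12.7 with both replicates together and of 6.33 in replicate 2, and none in replicate 1. Its strongest inside was 31.7 (IDR 0.591). Bap55 (FBgn0025716, 2R at 17429353 to 17430963, minus strand), which encodes an actin-related protein also found in the Tip60 complex, had no start candidate in the ranked list behind the conservative one. The ranked list behind the other thresholded list had 1 of 26.7, 105 bp from the start and with an IDR of 0.515. Replicate 1 had 1 of 15.7 and replicate 2 had 2 of at most 13.2. The nearest conservative summits were 7909 bp from Bap111 and 3147 bp from Bap55, the latter 21 bp from Mtap.

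**Figure D5:**
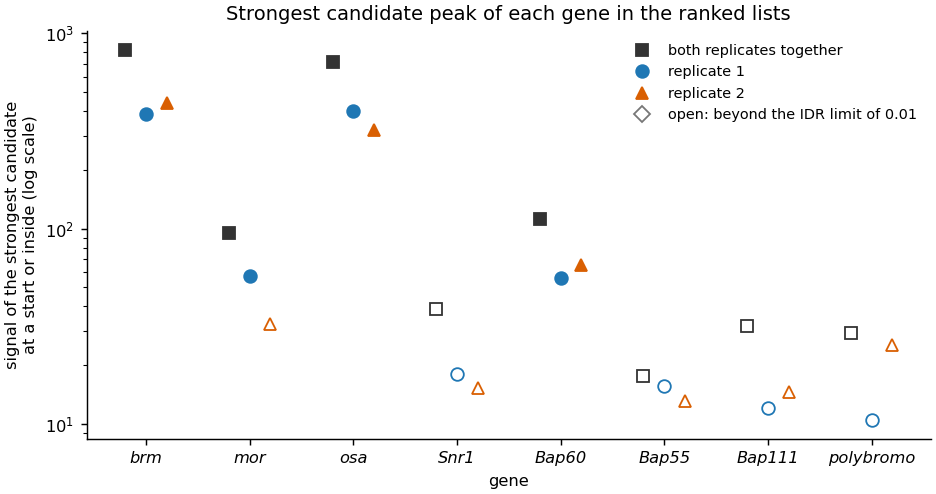
Signal (log scale) of the strongest candidate within 500 bp of a start of each gene or inside it, in the ranked lists of both replicates together, replicate 1 and replicate 2. Filled symbols are within the IDR limit of 0.01: brm, osa and Bap60 in all 3 lists, and mor with both replicates together and in replicate 1; the other 4 genes have open symbols below 40.

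A candidate alone says little, since 65.9% of protein-coding genes had one within 500 bp of a start in the ranked list behind the conservative one, as 5 of the 8 genes did. In the thresholded lists the start count was the same 2 genes throughout, against 13.6% of protein-coding genes in the other thresholded list, 11.4% in the list of replicate 1 and 9.62% in that of replicate 2.

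The nearest other protein-coding start ran head-to-head within 500 bp at 6 of the 8 genes. The neighbours were Arl1 for brm, Hel89B for mor, mRpL44 for Snr1, CG12096 for Bap60, Lhr for Bap55 and fh, the frataxin gene, for Bap111. Over all protein-coding genes 24.6% were placed so, and 25.1% of those had a conservative summit within 500 bp of a start. Of the 6, brm and Bap60 had one. The exceptions were osa, whose nearest such neighbour, Pxt, starts 1104 bp away, and polybromo, with CG6980 at 2362 bp.

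Further chromatin remodelling genes gave a share near the background. Of 43 such genes, 38 of other complexes and 5 further Brahma-associated ones, 5 (11.6%) had a conservative summit within 500 bp of a start, against 12.6% of all protein-coding genes. They were Ino80 (352.6), the ATPase gene of its complex, Gas41 (304.1), a subunit gene of the Tip60 complex, Chd1 (215.1), a remodelling ATPase gene, MBD-like (96.0), a NuRD gene, and Act5C (17.3), an actin gene. By list, 2 of 15 INO80, SWR1 and Tip60 genes, 2 of 9 CHD and NuRD genes, 1 of 5 further Brahma-associated genes, 0 of 8 ISWI complex genes and 0 of 6 other SNF2 ATPase genes had one. Without the Brahma-associated genes the count was 4 of 38 (10.5%). Each of the 5 peaks lay within 500 bp of another gene's start as well, SA1 at Gas41, Aptx at Ino80, Bem46 at Chd1, AP-1mu at MBD-like and lncRNA:CR45668 at Act5C. The Act5C peak overlapped the edge of a stronger one of 278.6, whose summit was 664 bp from the Act5C start. None of the 5 exceeded the brm start peak of 824.6, but that is the strongest member peak and ranks 39 of 3083, so most peaks lie below it. The peaks at Ino80, Gas41 and Chd1 exceeded the Bap60 start peak of 112.7, and those at MBD-like and Act5C did not.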

How the data were processed

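Per the labels' descriptions, CG14667-eGFP chromatin from whole embryos was sonicated to 200 to 800 bp and precipitated with anti-GFP in 2 biological replicates. Only peak lists were used. Their inputs, per the file headers, were dm6 alignments and a control, and no aligner, peak caller or version was given in the sources used here. The authors deposited for each peak a signal, an IDR score of at most 1000, −log10 of a q-value and, in ranked lists, −log10 of the global IDR. In the pooled lists 16 per-replicate columns name no sample and were left out.

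Summits were computed from the deposited starts and offsets (1-based) and assigned with Python 3.11.15 scripts to genes of Ensembl release 115 on the chromosome arms. Peaks on scaffolds were ranked but not assigned, and every arm peak ended within its arm. A gene had a start summit within 500 bp of any of its starts. Overlap needed 1 bp. GC content was taken within 50 bp of the summit and in like windows 300 bp to either side. Sequences are from the RefSeq dm6 assembly. Gene assignment was tested on simulated data. The pooled signal was about the sum of the replicates' own signals (median ratio 0.996), so it is not independent of them.

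The members, gene lists, motifs and the rule for named genes (all 8 genes, genes sharing a peak, nearest genes, rank neighbours, bound remodelling genes) were chosen with earlier results of these data known. Genes next to members without a peak were named after their values were seen. There is 1 group, so no test was made. Alternatives covered the lists, limits, distances, starts and windows.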

Additional observations from a re-analysis of the deposited data

Results flagged for a closer look

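The candidate upstream of mor, shared with Hel89B, had a signal of 94.9264 with both replicates together and met the authors' IDR limit, yet no thresholded list held it. It stands out because it is a signal in data outside the conservative list that the counts rest on. Its value was 57.0 in replicate 1, within the limit, and 32.4 in replicate 2, beyond it. With it counted, 3 of the 8 genes would have a start summit, against 2 in the conservative list. With all left-out candidates counted the share over all protein-coding genes would be 12.8%, against 12.6%. Why it was left out was not tested.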

How the results depend on the processing

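Of 45 alternatives, 37 left the count or value of the result on the same scale (counts and shares within 1.5 times, other values within the spread) and 8 moved it. With each summit given only to the nearest start, 1 member instead of 2 had a start summit, since CG12096 was nearer to the Bap60 peak. The pooled summit left brm its peak by 2 bp over Arl1. In replicate 1 the summit lay 150 bp from the brm start, past the middle of the 266 bp to Arl1, so there Arl1 was the nearer. A global IDR of 0.001 or less left 1669 peaks, lowered the share of protein-coding genes with a start summit from 12.6% to 8.33%, and kept all 5 member peaks. With either replicate left out, the start signal ranged from 388.8 to 439.7 at brm and from 55.8 to 65.2 at Bap60, below the pooled values, which come close to the replicates' sum. Within 100 bp of the summit the GC difference was -21.9 points. Within 25 bp, an alternative chosen after seeing the data, the pairs of a summit and a word found at it fell from 6 to 3. Adding back the left-out candidates, also chosen after seeing the data, gave 3 members with a start summit and 7 of 43 further remodelling genes, against 12.8% of all protein-coding genes. The candidate upstream of mor also lies 218 bp from the start of Hel89B, which is among those 43, so it adds to both counts.

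No paired analysis was possible because the samples form 1 group. Depth is unknown and the signal scale is not stated, so whether genes without a peak have weaker binding than the lists can show was not tested, nor whether any signal is nonspecific.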

Other observations

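Both brm peaks hold an inverted repeat, a word followed by its reverse complement, and the osa and Bap60 peaks hold none by the same search. The pattern was noticed after the sequences were read. The search took words of 10 bases with at least 4 G or C and a gap of at least 20 bp, in 301 bp around the summit, and extended matches while they paired. At the brm start, arms of 11 bases lay 129 bp apart on either side of the A and T rich centre, at 15982937 and 15983077 on 3L.
brm start, left arm: GCGTTCAGCAC
brm start, right arm: GTGCTGAACGC
In the brm intron, arms of 11 bases lay 178 bp apart, at 15977666 and 15977855. The outer CGATA matches described above for this intron lie within these arms, so the repeat and those matches share bases.
brm intron, left arm: TATCGGTGCAC
brm intron, right arm: GTGCACCGATA
Such a repeat was in 4.69% of the 3029 windows at conservative summits and in 3.07% of windows centred 1000 bp to the left.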
